A study of Mus musculus with 9 samples.

Results

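The interferon regulatory factor (IRF) family was followed through its listed members *Irf1*, *Irf2*, *Irf3*, *Irf4*, *Irf5*, *Irf7*, *Irf8* and *Irf9*, 8 of the 53801 genes counted in each library. The members were listed by gene name, with earlier results of these data known, and all 8 passed the filter on low counts in every comparison. Monocytes/macrophages, gated as CD11c-Ly6G-CD11b+CD45high, were sorted from male C57BL/6J mice of 9 weeks and profiled by bulk RNA-seq in 3 groups of 3 libraries. Sham blood came from sham-operated mice, with the day after surgery not stated in the sources used here. Stroke blood and stroke brain came from mice 5 days after permanent focal cerebral ischemia, made by occluding the left distal middle cerebral artery (dMCAO) and the left common carotid artery. Each blood library held the cells of 1 mouse, whereas each brain library was a pool of the ipsilesional hemispheres of 5 mice. No sham brain group was analysed here, so that tissue and stroke cannot be told apart in the comparison of brain with sham blood, and tissue and the isolation procedure (Ficoll for blood, enzymatic dissociation and Percoll for brain) cannot be told apart in any comparison with the brain.

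IRF proteins are transcription factors that share a DNA-binding domain recognizing GAAA repeats, as found in the interferon-stimulated response element (ISRE). IRF3, IRF7 and IRF5 wait in the cytosol and are activated by sensors of nucleic acids or by Toll-like receptors to switch on type I interferon and cytokine genes, while IRF9 joins STAT2 in the ISGF3 complex that answers type I interferon. IRF1 is an activator induced by interferon-γ and IRF2 is its classical antagonist. IRF8 and IRF4 bind weakly alone and act with partners such as PU.1 and BATF proteins; IRF8 directs the development of monocytes, microglia and some dendritic cells, and IRF4 is known for alternative macrophage activation, a dendritic cell subset and plasma cells.

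Total counts were between 18475118 and 22623578 per library, and levels are given as CPM, counts scaled to a common library total with TMM factors, on which a floor of 3 counts is 0.125 to 0.18 CPM. All 7 monocyte and macrophage markers were above that floor in each group. The brain libraries also carried microglial RNA: the summed level of 9 microglial markers was between 1394 and 4001 CPM in the brain and between 149 and 206 CPM in stroke blood, where *Olfml3*, *Sall1* and *Siglech* were at or under the floor. Markers of conventional dendritic cells summed to 768 to 1010 CPM in the brain and 149 to 275 CPM in stroke blood, although the gate left out CD11c+ cells. *Cd209a* alone was at 479, 420 and 420 CPM in brain libraries 1 to 3. Of the same list, *Xcr1* reached at most 6.67 CPM and *Clec9a* at most 2.14 CPM in the brain. Stroke brain library 1 stood apart from its group, with the lowest microglial sum and the highest level of *Nr4a1* (3105 CPM, against 690 and 864), which made up most of its sum of 7 nonclassical monocyte markers (4130 CPM, against 2080 and 2551). Sham blood library 3 had the highest sum of classical monocyte markers (32860 CPM, against 14930 and 17420) and of neutrophil markers (1723 CPM, against 179 and 369). Sham blood library 1 had the lowest sums of erythroid (944 CPM, against 27340 and 25230) and platelet markers (17.1 CPM, against 401 and 607). This library held the highest *Irf2*, *Irf5*, *Irf7*, *Irf8* and *Irf9* levels of its group, but not the highest *Irf1*, *Irf3* or *Irf4* level. Erythroid markers summed to 10940 to 15650 CPM in stroke blood and 3.26 to 11.7 CPM in the brain, and their part in the IRF levels was not tested. In bulk samples, fewer cells of a type and less RNA per cell cannot be told apart.

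Compared per transcript length, as TPM (counts per kilobase of merged exons, scaled to the same total in each library), the family kept much the same order in the 3 groups. *Irf5* was the most abundant member, with 590 ± 108 TPM in sham blood, 558 ± 131 TPM in stroke blood and 741 ± 33.8 TPM in the brain (SD, n = 3 in each group). *Irf7* came next with 201 ± 57.0, 279 ± 36.7 and 338 ± 20.7 TPM, and *Irf8* followed with 133 ± 30.5, 123 ± 32.5 and 182 ± 16.5 TPM. *Irf4* was the scarcest in every group, with 7.89 ± 3.43, 12.1 ± 2.59 and 6.20 ± 2.05 TPM. Some neighbours in this order did not separate: the libraries of *Irf7* and *Irf8* overlapped in sham blood, those of *Irf1* and *Irf9* in both blood groups, and those of *Irf2* and *Irf3* in all 3 groups. In the brain, *Irf1* (125 ± 15.5 TPM) stood above *Irf9* (67.1 ± 11.9 TPM) in every pair of libraries. Between groups the scales can differ in direction. *Irf3*, *Irf5* and *Irf7* had higher mean TPM in the brain than in stroke blood (30.8 against 25.2 TPM for *Irf3*). Their mean CPM was lower in the brain (37.1 against 44.0, 753 against 810 and 446 against 534). *Irf9* was at 67.1 against 72.5 TPM but 127 against 198 CPM. Groups are compared here in CPM. Merged exons count the bases of all isoforms, so these per-length levels can be off by a degree and in a direction that differ between genes.

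**Figure D1:**
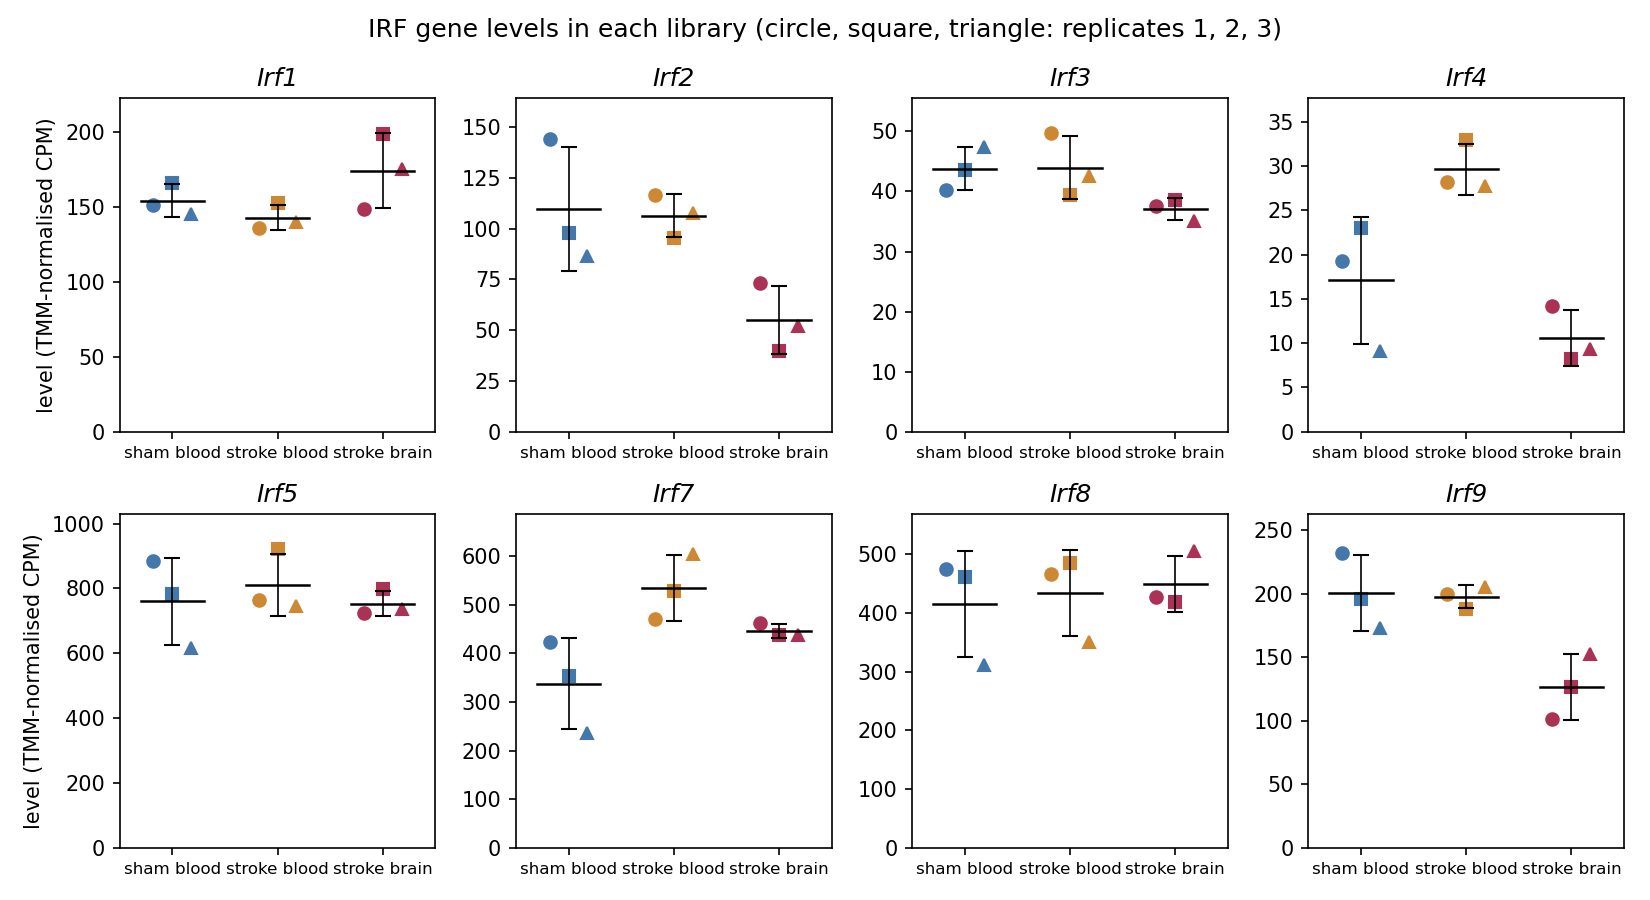
Level of each IRF gene in TMM-normalised CPM (vertical axis, from 0) in the 9 libraries, grouped as sham blood, stroke blood and stroke brain, with symbols for replicates 1 to 3, a line at the group mean and bars of 1 SD. The 3 brain libraries lie under all 3 stroke blood libraries for *Irf2*, *Irf3*, *Irf4*, *Irf7* and *Irf9*.

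To ask how the family differed between macrophages in the poststroke brain and monocytes in the blood of stroke mice, the brain was compared with stroke blood. No member was higher in the brain and 3 of 8 were lower at an adjusted p below 0.05, namely *Irf4*, *Irf2* and *Irf9*. Of all 13189 genes tested, 30.6% passed this test, 17.5% as higher and 13.1% as lower. *Irf4* alone was also a differentially expressed gene (DEG, with an absolute log2 fold change above 1), a call made for 21% of all genes and, as lower, for 7.86%. *Irf2* (-0.92) became a DEG as well under upper-quartile scaling (-1.07), without brain library 1 (-1.18) and without stroke blood library 2 (-1.02). The median log2 fold change of the 8 members was -0.22 beside 0.06 over all genes tested, and the median of its absolute size was 0.27 beside 0.57. In CPM, brain and stroke blood libraries did not overlap for 5 members, all lower in the brain. Of all genes, 48.2% did not overlap, 24.9% as higher and 23.2% as lower. This pattern depends on the scale. In TPM, all brain libraries lay above all stroke blood libraries for *Irf1*, *Irf3*, *Irf5*, *Irf7* and *Irf8*. Only *Irf4* lay below in TPM, and the libraries of *Irf2* and *Irf9* overlapped.

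*Irf4*, the scarcest member, showed the largest difference of the family. Its level was 28.2, 33.0 and 27.8 CPM in stroke blood libraries 1 to 3 and 14.2, 8.18 and 9.37 CPM in brain libraries 1 to 3. All brain libraries lay below all stroke blood libraries, and brain library 1 was the highest of its group. *Irf4* fell by 1.46 on the log2 scale (SE 0.26, adjusted p = 0.00304), and it stayed past the test whichever library was omitted (6 of 6 fits), with estimates from -1.73 to -1.29. In sham blood the level was 19.3, 23.0 and 9.07 CPM, so that sham blood library 3 lay within the brain range and the other sham libraries above it. Markers of B cells and plasma cells, which express *Irf4*, summed to 67.1 to 179 CPM in stroke blood and 44.9 to 101 CPM in the brain, and none of the 6 such genes tested passed in this comparison, whereas 8 of 9 conventional dendritic cell markers were higher in the brain. The part of either cell type in the *Irf4* levels was not tested. No exon of *Irf4* overlaps another gene in the annotation (GRCm38, chromosome 13, 30749226 to 30766976, plus strand). The genes whose centred log2 CPM profile over the 9 libraries lay closest to that of *Irf4*, among 7919 genes, were *Arl5c*, *Gm21188* and *Aida*, with root mean square differences of 0.29, 0.32 and 0.33 on the log2 scale.

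*Irf2*, the antagonist of IRF1, was the next largest. It was at 117, 95.2 and 108 CPM in stroke blood and at 73.1, 39.8 and 52.0 CPM in the brain. Here too the groups did not overlap and brain library 1 was the highest of its group. *Irf2* fell by 0.92 (log2, SE 0.23, adjusted p = 0.0146), but only 3 of the 6 fits that left out a library kept it past the test: without stroke blood library 1, brain library 2 or brain library 3 the adjusted p was 0.0558, 0.0519 and 0.0600. *Irf1*, the activator, was at 136, 153 and 140 CPM in stroke blood and at 149, 199 and 175 CPM in the brain. The lowest brain library lay below the highest stroke blood library, and the log2 difference of 0.32 (95% interval -0.04 to 0.67) did not pass (adjusted p = 0.158). Scaled by library size alone, *Irf1* did pass (0.47, adjusted p = 0.0485).

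*Irf9*, the DNA-binding subunit of ISGF3, was at 200, 188 and 205 CPM in stroke blood and at 101, 126 and 153 CPM in the brain. The highest brain library stayed below the lowest stroke blood library, and brain library 1 was here the lowest. *Irf9* fell by 0.61 (log2, SE 0.17, adjusted p = 0.0248). This call held in 2 of the 6 fits that left out a library and was lost without stroke blood library 1 (adjusted p = 0.0658), stroke blood library 3 (0.0534), brain library 1 (0.0556) or brain library 2 (0.0833). It was also lost under library size alone, where the log2 fold change was -0.45 (adjusted p = 0.0677). Of the exon bases of *Irf9*, 2.28% are shared with *Rnf31* on the same strand, and reads there cannot be assigned to either gene; *Rnf31* did not pass in any comparison.

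The members activated downstream of sensors did not pass. *Irf7* was at 469, 529 and 605 CPM in stroke blood and at 462, 437 and 438 CPM in the brain, with no overlap, and its log2 difference was -0.23 (95% interval -0.56 to 0.10). *Irf3* was at 49.8, 39.5 and 42.6 CPM in stroke blood and at 37.6, 38.5 and 35.0 CPM in the brain, with a log2 difference of -0.21 (interval -0.60 to 0.17). *Irf5* was at 765, 920 and 745 CPM and at 725, 798 and 737 CPM, and the groups overlapped. The *Irf5* difference was -0.07 (interval -0.42 to 0.27), which turned to 0.08 under library size alone. For *Irf5*, 14.1% of the exon bases are also covered by *Tnpo3* on the opposite strand, and the strand setting of the counting is not given in the sources used here. *Tnpo3* did not pass in any comparison.

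*Irf8*, the lineage factor of monocytes and microglia, was at 466, 486 and 351 CPM in stroke blood and at 427, 419 and 505 CPM in the brain. Brain library 3 held both the highest *Irf8* level and the highest sum of microglial markers (4001 CPM), and the part of microglia in the *Irf8* level was not tested. The groups overlapped, and the log2 difference was 0.08 (95% interval -0.31 to 0.48, adjusted p = 0.751), of either sign depending on the scaling (-0.06 with upper-quartile scaling). These intervals leave room for differences of up to 0.60 on the log2 scale in *Irf3*, *Irf5*, *Irf7* and *Irf8*.

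**Figure D2:**
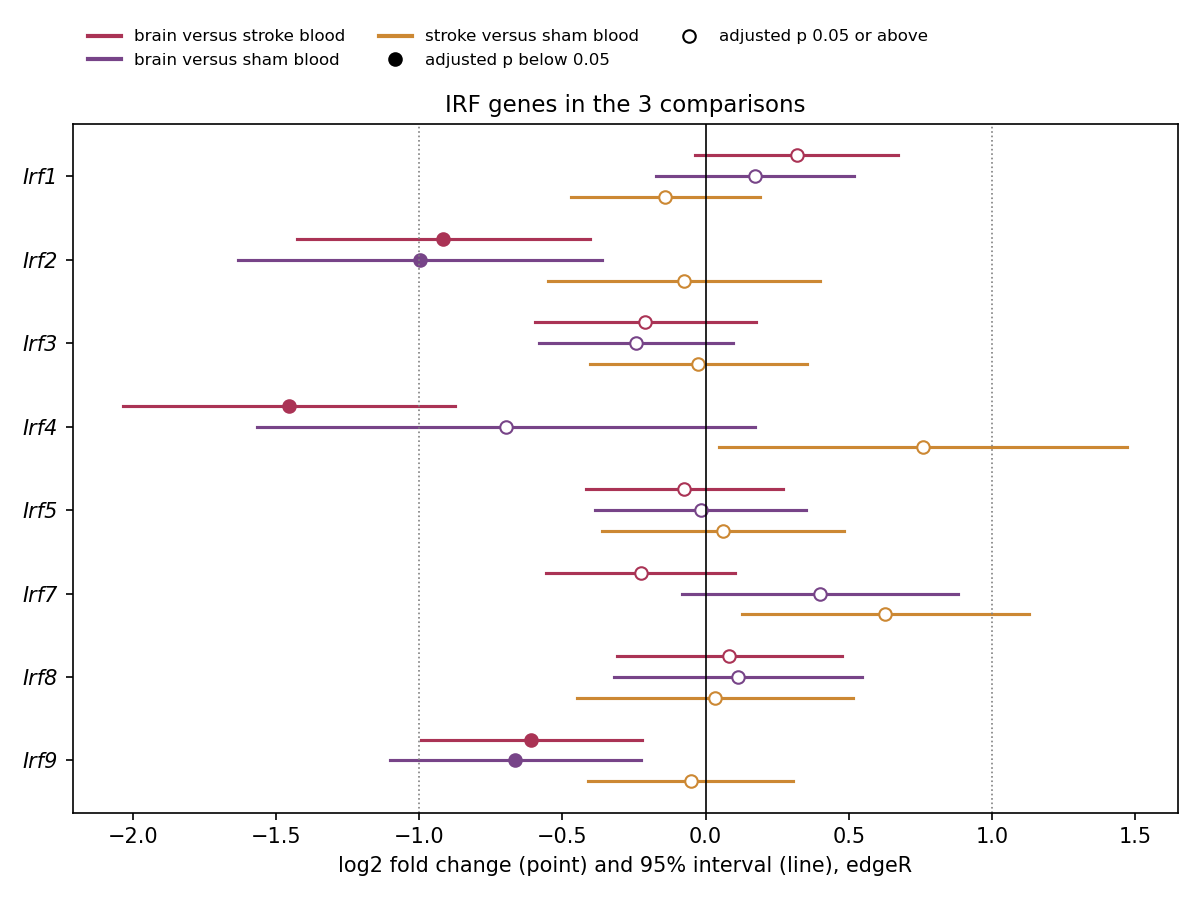
Log2 fold change of each IRF gene (points) with its 95% interval (lines) from edgeR in the comparisons of brain with stroke blood, brain with sham blood and stroke with sham blood; filled points passed at an adjusted p below 0.05 and dotted lines mark a log2 fold change of -1 and 1. Filled points are on the lower side: *Irf4*, *Irf2* and *Irf9* against stroke blood, and *Irf2* and *Irf9* against sham blood.

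Against sham blood, the brain shares its libraries with the comparison above, so the values are set side by side and not counted as a second line of evidence. Of the 8 members, 2 were lower, none was higher and none was a DEG, where 19.8% of 13020 genes passed, 7.68% as lower, and 13.4% were DEGs (9.75% higher, 3.67% lower). The libraries did not overlap for 3 members as lower (*Irf2*, *Irf3*, *Irf9*) and 1 as higher (*Irf7*), beside 19% and 22.1% of all genes, 41.2% in all. *Irf2* was at 144, 98.0 and 86.5 CPM in sham blood, all above the brain libraries, and fell by 0.997 on the log2 scale in the brain (SE 0.27, adjusted p = 0.0400). *Irf9* was at 232, 196 and 173 CPM in sham blood, again above all brain libraries, and fell by 0.66 (SE 0.19, adjusted p = 0.0449). At this size *Irf2* lay just short of a DEG and was called one by DESeq2, with RLE or upper-quartile scaling, with no filter, with thinned counts, with the replicate number as a block and without brain library 1 (-1.003 to -1.26). Neither call was firm. *Irf2* passed in 1 of 6 fits that left out a library, the one without brain library 1 (adjusted p = 0.0225), with adjusted p from 0.0584 to 0.119 in the others; *Irf9* passed in 1 of 6, the one without brain library 3 (0.0494), with 0.0574 to 0.123 in the others; and under library size alone neither did. *Irf4* did not pass here (-0.70, 95% interval -1.57 to 0.17, adjusted p = 0.232). *Irf7* was higher in all brain libraries than in all sham libraries without passing (0.40, interval -0.08 to 0.88, adjusted p = 0.218). The other members had log2 differences between -0.24 (*Irf3*) and 0.17 (*Irf1*), and none of them passed.

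To ask whether stroke moved the family in circulating monocytes, stroke blood was compared with sham blood. None of the 8 members passed the edgeR test or DESeq2's; 2 had an unadjusted p below 0.05. Of all 12664 genes tested, 1 passed (0.0079%) and 1581 had an unadjusted p below 0.05, while DESeq2 called 191. Those 2 members were *Irf7* and *Irf4*, and for both the groups did not overlap, as was the case for 18.1% of all genes, 9.77% as higher. *Irf7*, the interferon-inducible amplifier of type I interferon production, was at 422, 353 and 237 CPM in sham blood and at 469, 529 and 605 CPM in stroke blood. Every stroke library was above every sham library, with sham library 3 well below the rest. The *Irf7* log2 difference was 0.63 (95% interval 0.13 to 1.13, unadjusted p = 0.0197, adjusted p = 0.332; DESeq2 adjusted p = 0.176).

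The *Irf4* log2 difference between stroke and sham blood was 0.76 (95% interval 0.05 to 1.47, unadjusted p = 0.0393, adjusted p = 0.385; DESeq2 adjusted p = 0.233). Without sham blood library 3, the library with the most classical monocyte and neutrophil marker RNA, the differences were 0.42 for *Irf7* and 0.45 for *Irf4*, with adjusted p of 0.544 and 0.552. For *Irf4* the estimate ranged from 0.45 to 1.03 over the 6 fits that left out a library. The part of classical monocytes or neutrophils in these levels was not tested. *Irf1*, *Irf2*, *Irf3*, *Irf5*, *Irf8* and *Irf9* had log2 differences between -0.14 and 0.06, and their 95% intervals lay within -0.55 and 0.52. Stroke blood is the reference of one comparison and the test group of the other, so a high *Irf4* level in stroke blood enters both, in opposite directions.

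Ratios of members that act against or beside each other were also formed within each library, since they do not depend on the scaling between libraries. The log2 ratio of *Irf8* to *Irf4* was 4.05, 3.88 and 3.66 in stroke blood and 4.91, 5.67 and 5.75 in the brain, a difference of 1.58. The sham libraries, at 4.62, 4.33 and 5.10, lay above all stroke blood libraries and overlapped the brain. The log2 ratio of *Irf1* to *Irf2* was 0.22, 0.68 and 0.38 in stroke blood, 0.07, 0.76 and 0.75 in sham blood and 1.02, 2.32 and 1.75 in the brain. All brain libraries were thus above all blood libraries, by 1.27 on average against stroke blood and 1.17 against sham blood. The log2 ratio of *Irf7* to *Irf3* was 3.24, 3.74 and 3.83 in stroke blood, 3.62, 3.50 and 3.64 in the brain and 3.39, 3.02 and 2.32 in sham blood. Its mean was thus 3.60 in stroke blood, 3.59 in the brain and 2.91 in sham blood. Without sham blood library 3 the differences from sham blood went from 0.69 to 0.40 (stroke blood) and from 0.68 to 0.38 (brain). With 3 libraries against 3 the two-sided exact permutation test cannot go below p = 0.1, which 5 of the 9 comparisons of ratios reached, with a Benjamini-Hochberg adjusted p of 0.18.

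**Figure D3:**
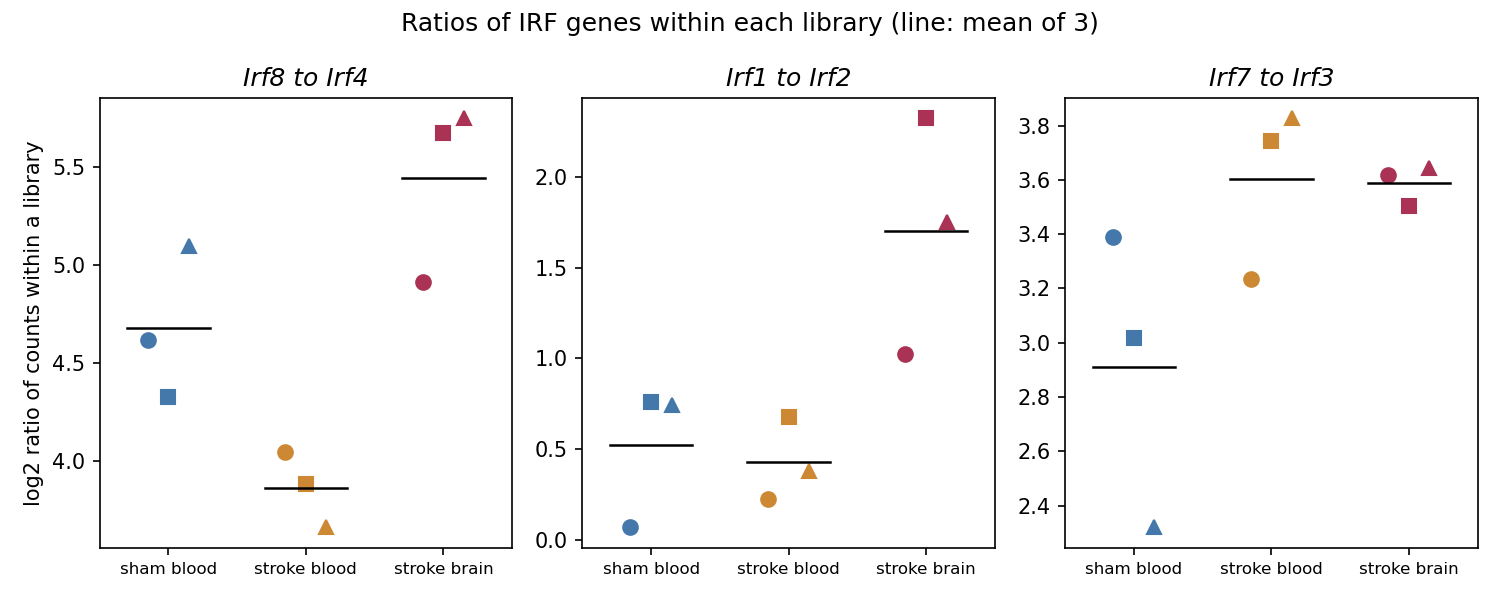
Log2 ratio of raw counts within each library for *Irf8* to *Irf4*, *Irf1* to *Irf2* and *Irf7* to *Irf3* (vertical axes, each with its own range), with symbols for replicates 1 to 3 and a line at the mean. The brain libraries lie above all stroke blood libraries in the first and above all blood libraries in the second panel.

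The 250 bases before the RefSeq start site of the members in the *Irf8* to *Irf4* and *Irf1* to *Irf2* ratios are shown for the letters they hold (GRCm38.p6), for *Irf1* and *Irf8* at the more upstream of 2 RefSeq starts. Capitals mark matches to the ISRE core, a pair of GAAA letters with 2 bases between them, or to TTCNNNGAA, the palindrome of the interferon-γ activated sequence (GAS) bound by STAT dimers, searched on both strands. The upstream windows are chr11:53769764-53770013 for *Irf1*, chr8:46739495-46739744 for *Irf2*, chr13:30748983-30749232 for *Irf4* and chr8:120736108-120736357 for *Irf8*, all on the plus strand:
Irf1: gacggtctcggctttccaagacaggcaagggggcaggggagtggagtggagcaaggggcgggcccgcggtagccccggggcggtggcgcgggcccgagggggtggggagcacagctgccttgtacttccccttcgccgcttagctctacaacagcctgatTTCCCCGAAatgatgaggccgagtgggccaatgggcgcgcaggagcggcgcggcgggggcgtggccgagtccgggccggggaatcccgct
Irf2: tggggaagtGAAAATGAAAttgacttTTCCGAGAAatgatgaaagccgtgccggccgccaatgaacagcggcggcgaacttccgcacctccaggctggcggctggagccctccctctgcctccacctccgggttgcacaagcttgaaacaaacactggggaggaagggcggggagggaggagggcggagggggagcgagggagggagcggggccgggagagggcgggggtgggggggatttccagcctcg
Irf4: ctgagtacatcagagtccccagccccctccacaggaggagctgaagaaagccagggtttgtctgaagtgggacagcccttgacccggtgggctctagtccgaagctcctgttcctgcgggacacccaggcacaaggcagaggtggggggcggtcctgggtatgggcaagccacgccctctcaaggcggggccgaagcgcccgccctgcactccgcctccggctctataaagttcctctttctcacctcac
Irf8: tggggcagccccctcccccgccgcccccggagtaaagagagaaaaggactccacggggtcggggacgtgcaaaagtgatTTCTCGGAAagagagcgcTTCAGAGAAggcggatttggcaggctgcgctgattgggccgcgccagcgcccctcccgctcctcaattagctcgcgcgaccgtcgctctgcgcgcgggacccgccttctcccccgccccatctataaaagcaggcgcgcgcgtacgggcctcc
*Irf1* held a GAS match, TTCCCCGAA, from -90 to -82 relative to the start. *Irf2* held an ISRE core, GAAAATGAAA, from -241 to -232 and a GAS match, TTCCGAGAA, from -224 to -216. *Irf8* held a pair of GAS matches, TTCTCGGAA from -171 to -163 and TTCAGAGAA from -153 to -145. No match lay in the window of the other start of *Irf1* and of *Irf8* or in those searched for *Irf3*, *Irf4*, *Irf5*, *Irf7* and *Irf9* (250 bases before to 50 after the start), and a match is a description of letters, not of binding. Over all 32851 promoters in the table, 3.44% held the ISRE core and 8.3% the GAS letters.

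Around the family, the genes of its pathway were read from lists of textbook partners, targets and other linked genes. The comparison was that of brain with stroke blood, where 17.5% of all genes passed as higher and 13.1% as lower. Among the inducing cytokines, *Ifng*, which encodes interferon-γ, was at 3.21, 0.71 and 0.48 CPM in stroke blood and at 5.06, 7.30 and 14.2 CPM in the brain, and rose by 2.61 (log2, SE 0.70, adjusted p = 0.0203). The rise passed in 3 of 6 fits that left out a library and was lost without stroke blood library 2 (adjusted p = 0.0788), stroke blood library 3 (0.072) or brain library 3 (0.0808); against sham blood it passed in all 6. T and NK cell markers, whose cells make interferon-γ, summed to 122 to 380 CPM in stroke blood and 314 to 561 CPM in the brain. *Nkg7* made up most of each sum, and 1 of the 6 markers passed, as higher. The part of these cells in the *Ifng* level was not tested. *Ifnb1* reached at most 3 counts in any library, and *Ifna1*, *Ifna2*, *Ifna4* and *Ifna5* had 0 counts in all 9. Of the 4 interferon receptor genes, *Ifnar1* rose (0.96, adjusted p = 0.0245) while *Ifnar2*, *Ifngr1* and *Ifngr2* had log2 differences between -0.14 and 0.07. Of 5 JAK and STAT genes, *Jak2* (2.30), *Stat3* (0.55) and *Jak1* (0.48) rose, and the ISGF3 subunit *Stat2* (0.02) did not pass, while its partner *Irf9* did; the difference between these genes was not tested. Leaving out a library, *Jak2* passed in 6 of 6 fits, *Stat3* in 3, *Ifnar1* in 2 and *Jak1* in 1. Upper-quartile scaling ended the calls of *Stat3* and *Jak1*.

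Of 20 genes of the sensing and adaptor route that activates IRF3, IRF5 and IRF7, 2 rose and 2 fell. Under upper-quartile scaling these counts were 2 and 5, and without brain library 1 they were 4 and 2, with *Cgas* and *Mavs* added. *Tbk1*, the kinase that phosphorylates IRF3 and IRF7, rose by 0.77 (log2, adjusted p = 0.0226), and the double-stranded RNA receptor *Tlr3* rose by 2.63. *Tlr7*, the endosomal single-stranded RNA receptor, fell by 0.66 and the RNA sensor *Ifih1* fell by 0.81. Of 10 genes for factors that pair with IRF4 or IRF8 or act beside them, *Cebpb* (5.08) and *Spib* (1.46) rose, and *Ikzf1* (-0.82), *Cebpa* (-0.94) and *Batf3* (-0.83) fell. *Spi1*, which encodes PU.1, had a log2 difference of -0.14 (95% interval -0.50 to 0.22). Of 9 corepressor and turnover genes, *Irf2bp2*, whose product binds IRF2, rose by 1.16 (adjusted p = 0.0308), *Prdm1* rose by 2.02, and *Trim21*, a ubiquitin ligase of IRF proteins, fell by 1.69 (adjusted p = 0.000572). Of these, *Tlr3*, *Ifih1*, *Cebpb*, *Prdm1* and *Trim21* passed in all 6 fits that left out a library, *Tlr7* in 5, *Ikzf1* and *Batf3* in 4, *Tbk1* and *Irf2bp2* in 3, *Spib* in 2 and *Cebpa* in 1, and *Cebpa* did not pass under library size alone.

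The lists of genes linked to each member differed, as the plot of log2 fold changes by list shows. The ISGF3, IRF1-linked and IRF8-linked lists did not move as a block. Most of the IRF4-linked and IRF5-linked genes tested passed as higher. Of 17 ISGF3 targets, *Ifi44* rose (2.03) and *Oas3* (-0.96) and *Xaf1* (-0.71) fell, with a median of -0.06 over the list. Brain library 1 weighed on this list: without it, 5 genes passed as higher and 1 as lower (1 and 4 over all libraries under upper-quartile scaling), and *Ifit3*, an interferon-induced RNA-binding protein gene, was at 36.0, 89.9 and 92.2 CPM in brain libraries 1 to 3 and at 47.3, 63.7 and 50.1 CPM in stroke blood. *Ifit3* had a log2 difference of 0.46 (adjusted p = 0.305) over all libraries and 0.79 (adjusted p = 0.0156) without that one. Brain library 1 was also the lowest of the 3 in *Irf9*. Of 15 IRF1-linked genes tested, 4 rose and 4 fell: *Ciita* (1.42), which controls MHC class II genes, *Cd274* (2.28), *Nlrc5* (0.59) and *Tap2* (0.43) were higher, and the MHC class I light chain *B2m* (-0.74), *Psmb10* (-0.63), *Casp1* (-0.84) and *Il15* (-0.72) were lower. With a library left out, *Oas3*, *Ciita*, *Cd274* and *Casp1* passed in 6 of 6 fits, *B2m* in 4, *Psmb10* in 3, *Xaf1* and *Il15* in 2, *Ifi44* and *Tap2* in 1 and *Nlrc5* in none. Library size alone ended the calls of *Xaf1*, *Psmb10* and *Il15*, and upper-quartile and RLE scaling those of *Tap2* and *Nlrc5*.

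Of 7 IRF8-linked genes, none rose and 3 fell, namely *Cybb* (-1.31), which encodes a subunit of the phagocyte NADPH oxidase, *Bcl6* (-1.15) and *Il18* (-0.69). *Cst3*, *Ctss*, *Fcgr1* and *Klf4* had log2 differences between 0.12 and 0.29. The *Klf4* value turned to -0.44 without brain library 1, where *Klf4* was at 118 CPM against 40.2 and 48.4, and the median of the list then went from 0.125 to -0.44. Left-out libraries brought the number that fell to between 1 and 3, *Cybb* alone passing in all 6 fits. Under library size alone *Bcl6* and *Il18* did not pass. Of the 3 IRF5-linked cytokine genes tested, *Il1b* (3.93, past the test in 6 of 6 fits with a library left out) and *Il6* (2.85, in 5) rose and *Tnf* (1.03, adjusted p = 0.0834) did not pass. Genes left out by the filter went both ways. *Il12b* had 149, 10 and 61 counts in the brain and 1 count in all of stroke blood, a ratio of 187 (95% interval 33.2 to 7420 for counting error only, 86.7 without brain library 1). *Il23a* had 0, 1 and 0 counts in the brain and 21, 6 and 10 in stroke blood, and was 43.5-fold higher in stroke blood (interval 7.34 to 1770, 28.6 without stroke blood library 1). *Il12a* had 13, 0 and 1 counts in the brain and 1, 1 and 0 in stroke blood.

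Of 9 IRF4-linked genes, 7 rose and 1, *Chil3* (-1.42), fell, while *Retnla* (1.89, adjusted p = 0.0777) did not pass. *Kdm6b*, a histone demethylase gene, rose by 1.98 and *Mrc1*, the mannose receptor, by 2.81. *Arg1*, arginase 1, was at 0.25, 0.19 and 0.78 CPM in stroke blood and at 55.9, 54.6 and 68.8 CPM in the brain. *Ccl22* had 0 counts in stroke blood and 761, 595 and 1156 counts in the brain, a fold of at least 236 (195 to 276 with a brain library left out). *Ccl17* had 28, 151 and 37 counts in the brain and 2, 0 and 3 in stroke blood, a ratio of 36.7 (95% interval 15.5 to 114 for counting error only), which was 17.2 without brain library 2 and 65.1 without stroke blood library 3. Leaving out each library in turn gave 7 to 8 higher and 1 lower. Several of these genes have other known regulators and mark other cells: *Zbtb46* is also counted among the dendritic cell markers, *Mrc1* among those of border-associated macrophages and *Chil3* among those of classical monocytes, a list of which all 5 members fell.

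**Figure D4:**
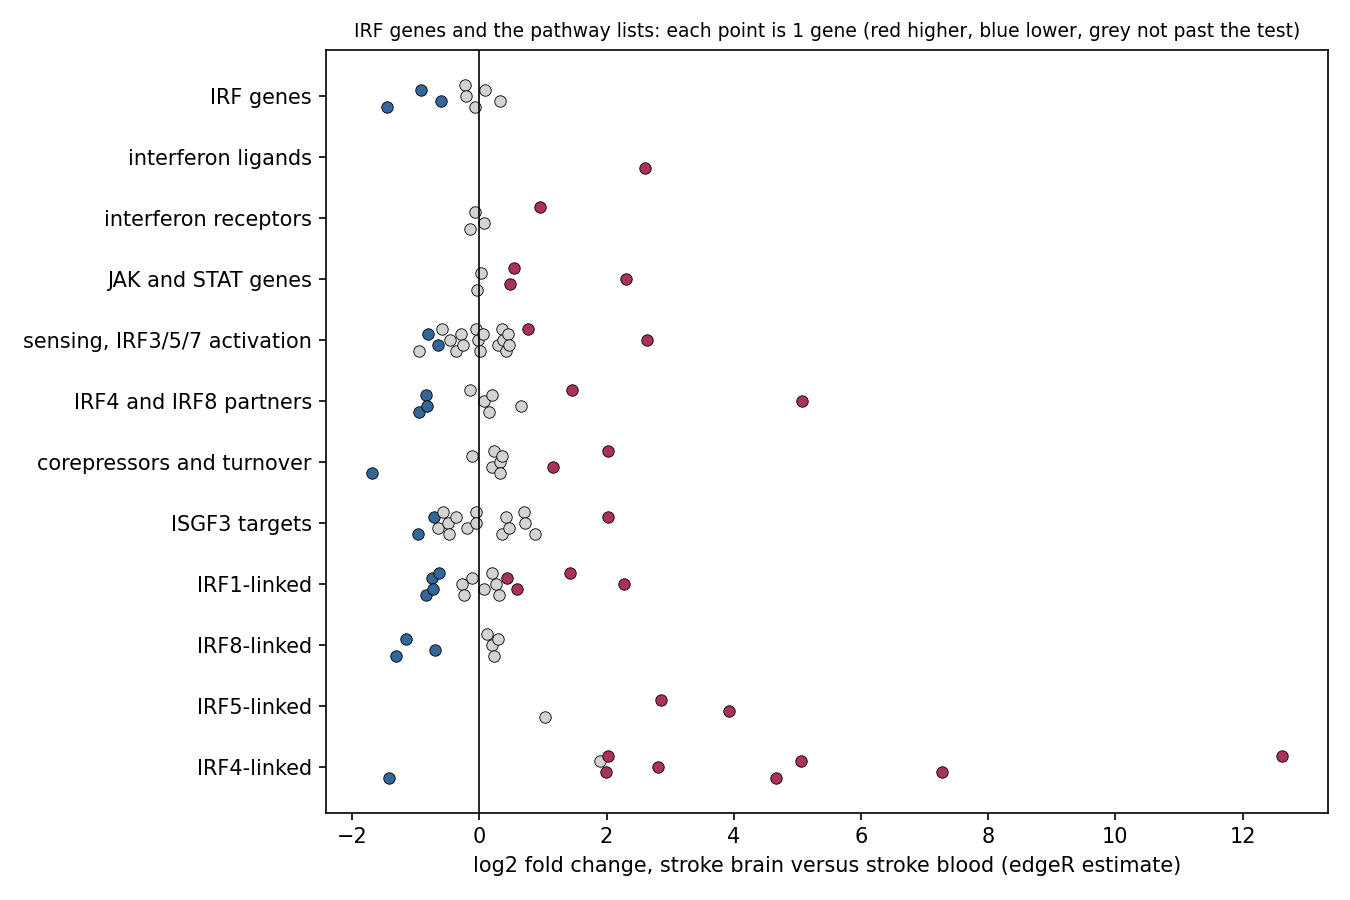
Log2 fold change of brain versus stroke blood (horizontal axis, edgeR estimate) for the 8 IRF genes and for each gene tested in 11 pathway lists; red points passed as higher, blue as lower and grey did not pass. The points of *Ccl17* and *Ccl22* are fitted values of genes at or under 3 counts in every stroke blood library and are no measure of size.

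Between stroke and sham blood, none of the 93 genes of these lists that were tested passed in edgeR, and 16 had an unadjusted p below 0.05. DESeq2 called 3 of them, *Spib* (-1.82, adjusted p = 5.14e-05) and *Chil3* (-1.29, adjusted p = 0.024) as lower and *Batf3* (1.01, adjusted p = 0.0409) as higher in stroke blood. Between brain and sham blood, the IRF4-linked list again had 7 genes higher and 1 lower, the ISGF3 targets none higher and 1 lower, and the IRF8-linked list 1 higher and 1 lower, where 12.1% of all genes passed as higher and 7.68% as lower.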

How the data were processed

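Reads were checked by the authors with FastQC in Chipster, mapped to GRCm38 with HISAT2 and counted with HTSeq; the deposited values are raw counts per gene, not normalized. Versions, annotation release and strand setting are not given in the sources used here. Libraries were grouped by their titles. GENCODE M21 gave symbols, exon lengths and overlaps (53706 of 53801 identifiers matched), and RefSeq gave promoters, with all 8 members matched.

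Counts were tested with edgeR 4.0.16 in R 4.3.3 (TMM, default filter on low counts, quasi-likelihood test on the 2 groups compared, Benjamini-Hochberg adjustment over all genes tested), which was also tested on simulated data. A gene passed at an adjusted p below 0.05. The SE is the log2 fold change over the square root of F. Alternatives were DESeq2 1.42.0, 3 other scalings, other filters, all 9 libraries in a single fit, thinned counts and each library left out in turn. Where a group had no count, a fold is a lower bound against 3 counts per library; with a few counts, the ratio of summed counts per effective library size has an exact binomial interval, which covers counting error only. Ratios used counts plus 0.5.

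Members and lists were chosen with earlier results of these data known, and list counts and ISRE counts under the alternatives were added after the data were seen. By rule, all members were named, and per list the 2 most abundant genes that rose and the 2 that fell, with lists of up to 8 genes in full. *Batf3*, *Spi1*, *Ifit3*, *Cd274*, *Nlrc5*, *Casp1*, *Il15*, *Il12b*, *Il12a* and *Il23a* counts, *Cgas*, *Mavs*, *Nr4a1*, *Nkg7*, *Cd209a*, *Xcr1*, *Clec9a*, *Arg1*, *Retnla*, *Ccl17*, *Ccl22*, *Zbtb46* and the members' exon neighbours were named after their values were seen. Some genes are not reported here. Within a group, replicates are separate mice or pools. Figures were drawn with matplotlib 3.10.9.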

Additional observations from a re-analysis of the deposited data

How the results depend on the processing

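*Irf4* in brain versus stroke blood passed under every alternative run, those that left out a library included. *Irf2* passed in all but the stricter threshold and 3 left-out libraries. *Irf9* lost its call under the stricter threshold and under library size alone, and kept it in only 2 of 6 fits that left out a library. The stricter threshold of adjusted p below 0.01 left 2089 genes and 1 IRF gene (brain versus stroke blood), 0 genes (stroke versus sham blood) and 865 genes and 0 IRF genes (brain versus sham blood). Between stroke and sham blood, DESeq2 called 191 genes and no filter on low counts 207, against 1. Library size alone left 0 IRF genes in brain versus sham blood. Scaling moved the median of all genes in brain versus stroke blood from 0.06 to 0.22 (library size alone) or -0.09 (upper quartile), and the share of calls that were higher from 57.2% to 69.2% or 45.5%; in brain versus sham blood that share went from 61.1% to 72.5% under library size alone. Estimates that changed sign, all without passing, were *Irf5* in brain versus stroke blood (0.080) and brain versus sham blood (0.10) and *Irf8* in stroke versus sham blood (-0.00070) under library size alone; *Irf8* in brain versus stroke blood (-0.064), *Irf3* (0.051) and *Irf9* (0.020) in stroke versus sham blood under the upper quartile; and *Irf3* in stroke versus sham blood (0.0063) with all 9 libraries. The cause was not tested.

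Leaving out each library in turn gave 2741 to 4147 genes and 1 to 3 IRF genes in brain versus stroke blood, 0 to 16 genes and 0 IRF genes in stroke versus sham blood, and 1434 to 2663 genes and 0 to 1 IRF genes in brain versus sham blood. Single estimates that crossed zero ranged in brain versus stroke blood from -0.088 to 0.14 (*Irf8*); in stroke versus sham blood from -0.23 to 0.17 (*Irf2*), -0.14 to 0.023 (*Irf3*), -0.085 to 0.18 (*Irf5*), -0.15 to 0.17 (*Irf8*) and -0.16 to 0.067 (*Irf9*); and in brain versus sham blood from -0.16 to 0.11 (*Irf5*) and -0.067 to 0.22 (*Irf8*). In brain versus stroke blood, the difference in the within-library ratio ranged from 1.43 to 1.85 for *Irf8* to *Irf4*. For *Irf1* to *Irf2* it ranged from 0.96 to 1.61. Some differences near zero changed sign, ranging from -0.20 to 0.098 (*Irf7* to *Irf3*, brain versus stroke blood) and -0.33 to 0.020 (*Irf1* to *Irf2*, stroke versus sham blood).

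The sources used here do not say whether a stroke blood library and a brain pool share a mouse. Deviations of libraries with the same replicate number correlated by -0.10 to 0.09. This cannot show that no mouse is shared, and the numbers were not taken to pair the libraries. With the replicate number as a block, 3560, 1 and 2096 genes and 3, 0 and 1 IRF genes passed in brain versus stroke blood, stroke versus sham blood and brain versus sham blood.

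With 3 libraries a group and no sham brain, the p-values set a group difference against the spread between these libraries. That spread is between pools of 5 mice in the brain and between single mice in blood.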

Other observations

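Genes with the ISRE core in a RefSeq promoter window were counted as a class. In brain versus stroke blood, 394 such genes were tested, of which 54 (13.7%) passed as higher and 74 (18.8%) as lower, beside 18.7% and 11.9% of the 9543 genes with a promoter window; the median log2 fold change was -0.02 beside 0.11. In each of the 17 settings run, the fit reported here included, the share higher was below that of all genes with a window and the share lower was above it. Under library size alone the shares were 18.3% and 14.2%, beside 23.6% and 8.59%. In brain versus sham blood the shares were 10.7% higher and 9.67% lower, beside 12.5% and 7.94%, the share higher was again below in 17 of 17 settings, and the share lower was above in 15 of 17. The window and the motif were not chosen independently of these data, and no test of the class was made.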
